A study of Mus musculus with 6 samples.

Results

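The complement genes measured here are the components, receptors and regulators of the complement system. They comprise 36 of the 41786 gene symbols in the count data. They were taken by name from a list of 37 symbols, of which 36 were counted. The remaining one, *C1s*, is an older name of *C1s1* in the RefSeq gene table. Of the 36 genes, 32 had enough reads to be tested, and the other 4 were *Mbl1*, *Mbl2*, *Fcnb* and *Masp2*. The 36 genes were grouped into classical initiation (7 genes), lectin initiation (8), C3 and the alternative pathway (4), the terminal pathway (4), receptors (5) and regulators (8).

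The tissue was an endometriosis-like lesion, grown in female C57BL/6 mice from uterus of 6-week-old GFP-positive donors that was stitched inside the abdomen, onto the peritoneum of wild-type recipients aged 8 weeks at the same cycle stage. After 3 days, recipients of the niclosamide group (3 libraries, 1 mouse each) received niclosamide, an anthelmintic drug, by mouth at 200 mg/kg daily for 3 weeks. Recipients of the vehicle group (3 libraries) received vehicle over the same period. RNA of 4 mice was pooled for vehicle 1, whereas vehicle 2 and 3 came from 1 mouse each. Per the labels, lesions of both groups were taken in diestrus and freed from recipient tissue. The labels place the collection 3 weeks after implantation, which is shorter than the 3 days and 3 weeks together, and do not settle the difference. Skeletal muscle markers still had reads in every library, as given below. The counts do not separate donor from recipient cells. In whole lesions, fewer cells of a type and less RNA per cell cannot be told apart.

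Complement is a cascade of plasma and tissue proteins. C1q bound to antibody or to dying cells activates the proteases C1r and C1s, and mannose-binding lectins, ficolins and collectins activate the MASP proteases. Both routes cleave C4 and C2 and form an enzyme that cleaves C3, and factors B and D with properdin amplify this cleavage. Products of C3 and C5 recruit and stimulate leukocytes through their receptors, and C5 to C9 form a membrane pore. Most plasma complement is made in the liver, while C1q is made chiefly by macrophages and dendritic cells. In rodent uterus, C3 is a known estrogen-induced product of the epithelium.

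Levels of different genes were compared as RPKM, the TMM-scaled read count set against library size and exon length. The 6 complement genes with the highest mean level over the 6 libraries were *C1qb* (518 RPKM), *C1qa* (494), *C3* (489), *Serping1* (462), *Clu* (430) and *C1qc* (408). *Cfb* followed with 313 RPKM and *C1s1* with 259 RPKM. The 3 C1q chain genes, *C3*, *Serping1* and *Clu* had overlapping ranges over the libraries, so their order was not resolved. At the other end, the terminal pathway genes were scarcely represented, with mean levels of 1.2 RPKM for *C6*, 1.12 for *C7*, 0.576 for *C8g* and 0.345 for *Hc*, which encodes C5. Messages for the classical route and for C3 were thus abundant in lesions of both groups, and messages for the terminal proteins were not. The liver genes *Alb*, *Apoa1*, *Ttr*, *Serpina1a*, *Apob*, *Fgb* and *Ahsg* together had 0.216 to 1.68 CPM with niclosamide and 0.189 to 1.49 CPM with vehicle, and *Fgb* had no read in any library. CPM is the read count scaled to library size alone (TMM), and it serves below to compare libraries for 1 gene.

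**Figure D1:**
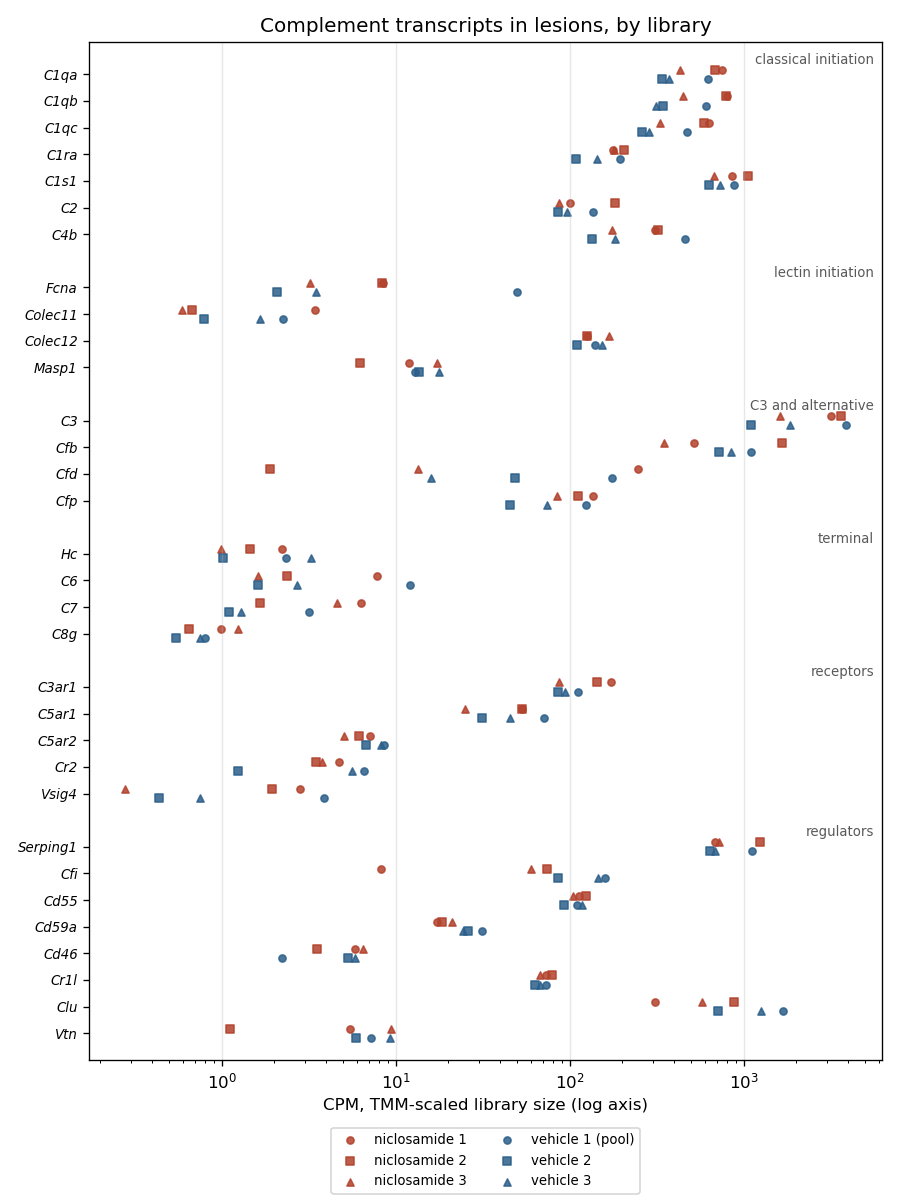
CPM of the 32 tested complement genes on a log axis, by branch, with 1 point per library; niclosamide libraries are drawn above vehicle libraries for each gene. The points of the 2 groups lie apart only for *Cd59a* and *Cfi*, and *Cfd* spans 1.89 to 247 CPM within the niclosamide group.

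No complement gene passed the threshold between niclosamide and vehicle. In edgeR's quasi-likelihood fit of 3 against 3 libraries, with Benjamini-Hochberg adjustment over 17364 genes, 0 of the 32 had an adjusted p under 0.05, and 0 of all genes (0%) did. The lowest adjusted p among the complement genes was 0.61, for *Cd59a*. DESeq2 called 0 of the 31 to which it gave an adjusted p (all but *Fcna*), against 1.22% of all genes with one, and limma-voom called 0 of the 32, against 0% of all genes. At an unadjusted p under 0.05 there was 1 complement gene, *Cd59a*, where the share over all genes was 6.92%. The groups did not overlap in 2 complement genes, *Cd59a* and *Cfi*, where the share over all genes was 12.3%. Both counts are smaller shares than those over all genes. The log2 fold change was above 0 in 19 of the 32 (median 0.08), against 53.7% of all genes (median 0.02). Libraries held 27797121 to 34797000 counted reads, and a count of 0 allows up to 0.0862 to 0.108 CPM, for counting error only.

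**Figure D2:**
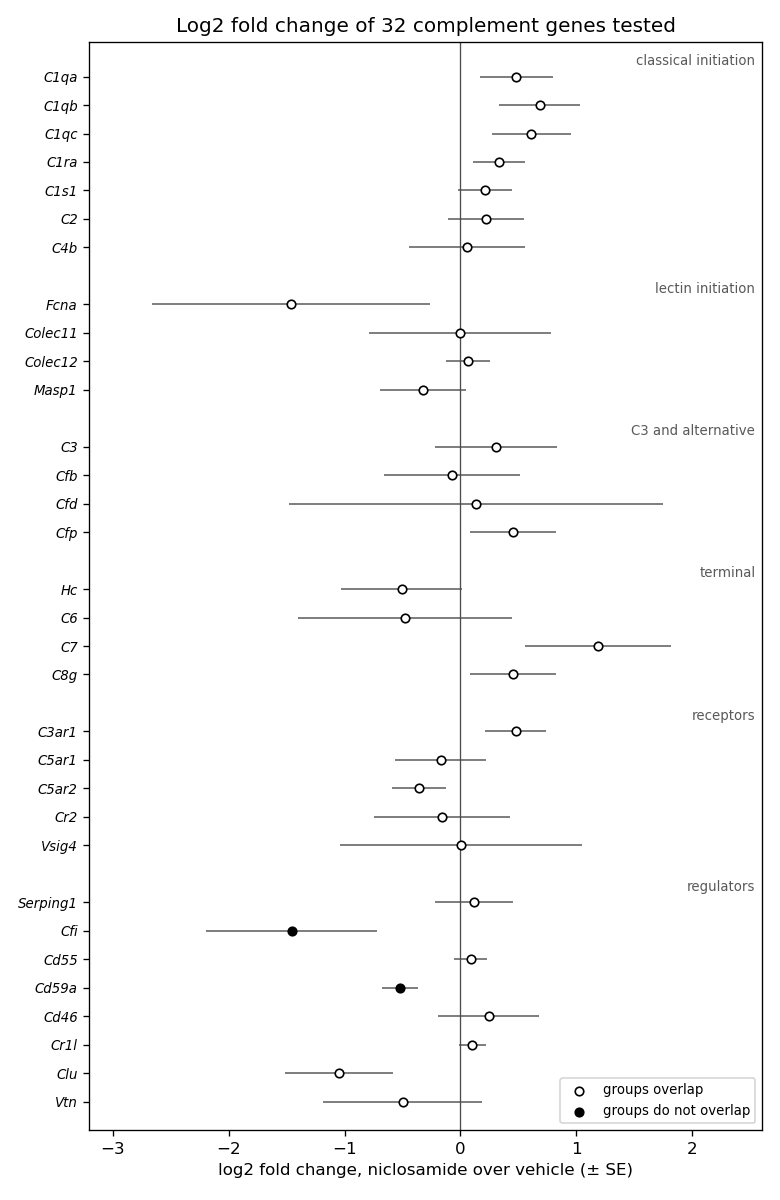
Log2 fold change, niclosamide over vehicle, with SE for the 32 tested complement genes by branch; filled points mark genes whose groups do not overlap. All 7 classical genes lie above 0, and the regulators *Cfi*, *Cd59a*, *Clu* and *Vtn* lie below 0, with none past the threshold.

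All 7 genes of classical initiation had a log2 fold change above 0, with a median of 0.34, and 0 passed the test. The values were largest for the 3 chains of C1q, the recognition molecule. *C1qa*, for the A chain, had 747, 688 and 433 CPM in niclosamide 1 to 3, against 621, 342 and 375 CPM in vehicle 1 to 3. *C1qb*, for the B chain, had 798, 790 and 447 CPM with niclosamide and 608, 345 and 315 CPM with vehicle. *C1qc*, for the C chain, had 637, 591 and 332 CPM with niclosamide and 476, 260 and 285 CPM with vehicle. In each chain niclosamide 1 and 2 were the highest libraries, the pooled vehicle 1 came next, and niclosamide 3 lay below vehicle 1 and above the other vehicle libraries. Log2 fold changes were 0.48 ± 0.32 (SE) for *C1qa* (adjusted p = 0.87), 0.68 ± 0.35 for *C1qb* (adjusted p = 0.79) and 0.61 ± 0.34 for *C1qc* (adjusted p = 0.81; edgeR quasi-likelihood, Benjamini-Hochberg). The 95% interval for *C1qb* ran from -0.15 to 1.52.

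The proportions of the 3 chains varied less than their levels. The ratio of *C1qa* to *C1qc*, in RPKM, was 1.14, 1.14 and 1.27 with niclosamide and 1.27, 1.28 and 1.28 with vehicle, and that of *C1qb* to *C1qc* ran from 1.09 to 1.34 over the 6 libraries. *C1qa* over *C1qb*, the ratio that varied most (1.37-fold), was 0.919, 0.855 and 0.952 with niclosamide and 1.002, 0.973 and 1.17 with vehicle. Groups were narrowly apart in this ratio and overlapped in the other ratios, where the levels of 12.3% of all genes did not overlap. No test was made of the ratios. The summed level of the 3 chains, by contrast, was 2181, 2069 and 1212 CPM with niclosamide and 1704, 946 and 975 CPM with vehicle. The genes lie together on chromosome 4 of GRCm38, *C1qb* at 136880145 to 136886177, *C1qc* at 136889802 to 136892914 and *C1qa* at 136895916 to 136898844, all on the minus strand. C1q per read of *Csf1r*, the macrophage growth factor receptor gene, was 4.42, 5.66 and 5.86 with niclosamide and 4.6, 4.78 and 4.64 with vehicle. Against the summed macrophage markers it was 0.297, 0.401 and 0.333 with niclosamide and 0.406, 0.434 and 0.312 with vehicle. These ratios varied 1.32-fold and 1.46-fold over the libraries, against 2.3-fold for C1q itself. The mean per *Csf1r* was higher with niclosamide (5.31 against 4.67 with vehicle), and that per macrophage sum was lower (0.343 against 0.384 with vehicle). Most of that sum was 1 marker, *Lyz2*, with 5702.5, 3865 and 2706 CPM with niclosamide and 2865, 1363 and 2228 CPM with vehicle. The ratio to the sum is thus mainly a ratio to *Lyz2*. All 13 macrophage markers were tested, 11 of them with a log2 fold change above 0, and their summed level was 3637 to 7349 CPM with niclosamide and 2178 to 4194 CPM with vehicle. The part of macrophage content in the C1q values was not tested.

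Because the C1q chains moved together, the start regions of *C1qb* and *C1qc* are shown, from 250 bases before to 50 bases after the RefSeq transcript start (GRCm38.p6), with that of *Cd59a*, which had the lowest p of the complement genes, and of *C3*, the center of the cascade. Windows were found for 27 of the listed symbols, and not for *C1qa*. Capitals mark matches on either strand to GAGGAA (the core bound by PU.1, a myeloid factor), TATAAA, TTCNNNGAA (STAT factors), or the consensus of the interferon-stimulated response element, the estrogen response element or NF-kB.
*C1qb* (chr4:136886151-136886450, minus strand): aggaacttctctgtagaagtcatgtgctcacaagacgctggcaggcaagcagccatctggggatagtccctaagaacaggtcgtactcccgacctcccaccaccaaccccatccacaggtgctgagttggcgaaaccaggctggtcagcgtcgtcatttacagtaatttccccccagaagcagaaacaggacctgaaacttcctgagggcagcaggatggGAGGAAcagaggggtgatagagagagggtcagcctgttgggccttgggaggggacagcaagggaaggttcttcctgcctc
*C1qc* (chr4:136892865-136893164, minus strand): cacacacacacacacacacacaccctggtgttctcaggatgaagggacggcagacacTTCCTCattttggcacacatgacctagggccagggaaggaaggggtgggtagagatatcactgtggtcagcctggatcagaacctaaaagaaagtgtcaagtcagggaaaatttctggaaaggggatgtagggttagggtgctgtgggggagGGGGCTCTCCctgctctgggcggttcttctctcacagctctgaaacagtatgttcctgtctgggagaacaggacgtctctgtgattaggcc
*Cd59a* (chr2:104095551-104095850, plus strand): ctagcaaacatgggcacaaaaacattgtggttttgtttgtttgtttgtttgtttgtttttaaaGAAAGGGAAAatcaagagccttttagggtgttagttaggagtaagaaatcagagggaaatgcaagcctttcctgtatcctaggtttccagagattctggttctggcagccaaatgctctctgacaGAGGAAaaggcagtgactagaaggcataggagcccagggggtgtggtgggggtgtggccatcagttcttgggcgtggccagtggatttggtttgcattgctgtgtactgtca
*C3* (chr17:57228087-57228386, minus strand): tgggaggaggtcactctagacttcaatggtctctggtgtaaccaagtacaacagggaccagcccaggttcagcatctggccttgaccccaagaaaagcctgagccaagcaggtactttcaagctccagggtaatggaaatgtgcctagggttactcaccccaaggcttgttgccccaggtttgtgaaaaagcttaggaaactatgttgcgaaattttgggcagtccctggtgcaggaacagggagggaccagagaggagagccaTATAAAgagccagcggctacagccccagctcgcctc

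Both C1q windows held a GAGGAA match, which 28.3% of all 32841 RefSeq windows of this length also held. The *C1qb* match began 30 bases before the annotated start, on the strand of the gene, and the *C1qc* match began 193 bases before it on the other strand, where it reads TTCCTC in the sequence shown. Among the complement genes with a window, *C1qc* alone had an NF-kB consensus match, which 8.46% of all windows held. The *Cd59a* window held an interferon-stimulated response element match (3.44% of all windows) and a GAGGAA match, and the *C3* window held TATAAA (13.6% of all windows), 14 bases after the annotated start. TTCNNNGAA, found in 8.3% of all windows, matched in windows of *C1ra*, *C7*, *Colec11*, *Masp2* and *Vtn*, and the estrogen response element matched in none of the complement windows, against 0.07% of all windows. These matches describe letters and are not evidence of binding.

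The C1 proteases and their substrates had log2 fold changes of 0.06 to 0.34. *C1ra*, for C1r, had 178, 207 and 179 CPM with niclosamide and 194, 109 and 144 CPM with vehicle (log2 fold change 0.34 ± 0.22). *C1s1*, for C1s, had 863, 1065 and 673 CPM with niclosamide and 876, 636 and 730 CPM with vehicle (0.21 ± 0.23). *C2* had 101, 183 and 86.8 CPM with niclosamide and 136, 86.2 and 96.7 CPM with vehicle (0.22 ± 0.33), and without niclosamide 2, its highest library, the value was -0.19. Vehicle 1 was in the upper range for each of these genes. *C4b*, for C4, had 310, 324 and 175 CPM with niclosamide and 462, 135 and 181 CPM with vehicle. Its log2 fold change of 0.06 ± 0.50 had a 95% interval from -1.15 to 1.26, which includes a 2-fold difference in either direction. Adjusted p values of these 4 genes were 0.88 to 0.99 (edgeR quasi-likelihood, Benjamini-Hochberg). The copy *C4a*, which shares much of its sequence with *C4b*, had 27 to 80 counts per library, and reads common to both may have been lost.

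Of the 8 lectin pathway genes, only 4 could be tested. Reads of the mannose-binding lectin genes were almost absent, with 0 counts of *Mbl1* in any library and 1 count of *Mbl2*, in niclosamide 2. *Masp2*, for a MASP protease, had 5 to 14 counts per library. *Fcnb*, a ficolin gene of neutrophil precursors, had 0, 9 and 24 counts with niclosamide and 1, 4 and 1 counts with vehicle. The most abundant member was *Colec12*, for a scavenger receptor collectin of stromal and endothelial cells, with 127, 126 and 169 CPM with niclosamide and 141, 110 and 153 CPM with vehicle (log2 fold change 0.06 ± 0.19, adjusted p = 0.98 by edgeR). *Masp1* had 6.27 to 17.3 CPM with niclosamide and 13 to 17.8 CPM with vehicle, and *Colec11* 0.591 to 3.43 CPM and 0.797 to 2.26 CPM. *Fcna*, a ficolin gene of macrophages, had 8.46, 8.31 and 3.23 CPM with niclosamide and 49.6, 2.09 and 3.49 CPM with vehicle. Its log2 fold change of -1.46 ± 1.2 (adjusted p = 0.93) had the pooled vehicle 1 far above every other library.

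*C3* was the gene with the most reads among the complement genes. It had 3195, 3621 and 1630 CPM with niclosamide and 3876, 1096 and 1860 CPM with vehicle. The groups overlapped fully, with vehicle libraries at both ends of the range. Its log2 fold change was 0.31 ± 0.52 (adjusted p = 0.97), and it was 0.93 without vehicle 1 and -0.03 without vehicle 2. *C4b* followed *C3* closely, with a ratio in RPKM of 0.0885, 0.0815 and 0.098 with niclosamide and 0.109, 0.112 and 0.0889 with vehicle, while *C3* alone varied 3.54-fold and *C4b* 3.43-fold over the libraries (highest over lowest CPM). The 9 estrogen-induced uterine genes listed beside them summed to 895, 6726 and 2565 CPM with niclosamide and 6968, 4237 and 5432 CPM with vehicle. Vehicle 1 and niclosamide 2 were the highest libraries for both *C3* and these genes, while niclosamide 1 was high for *C3* and lowest for the estrogen-induced genes. Their part in the *C3* values was not tested.

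*Cfb*, for the factor B protease of the alternative pathway, had 521, 1668 and 348 CPM with niclosamide and 1098, 720 and 851 CPM with vehicle. Niclosamide 2 was the highest library and the other niclosamide libraries were the lowest. Between groups the log2 difference was -0.07 ± 0.58 (adjusted p = 0.99). Without niclosamide 2 it was -1.05 ± 0.30 with an unadjusted p of 0.013 (adjusted p = 0.35, edgeR quasi-likelihood), and the remaining groups did not overlap, as in 27.1% of all genes without that library. Leaving out the highest library lowers the value by construction. An unadjusted p under 0.05 was then found in 10.1% of all genes. The summed level of the 8 uterine epithelium markers was likewise highest in niclosamide 2 and vehicle 1 and lowest in niclosamide 1 and 3, at 375, 2431 and 583 CPM with niclosamide and 2069, 1185 and 985 CPM with vehicle. All 8 had a log2 fold change below 0, and their part in the *Cfb* values was not tested. *Cfp*, for properdin, which stabilizes the alternative convertase, had 136, 112 and 84.5 CPM with niclosamide and 124, 45.7 and 73.9 CPM with vehicle (log2 fold change 0.45 ± 0.37, adjusted p = 0.93).

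*Cfd* encodes factor D, or adipsin, a protease made mainly by fat cells. It had 247, 1.89 and 13.5 CPM with niclosamide and 175, 48.3 and 15.9 CPM with vehicle, a 131-fold range over the libraries. The highest and the lowest library were both from the niclosamide group, and the log2 fold change of 0.14 ± 1.61 ranged from -3.38 without niclosamide 1 to 1.44 without vehicle 1. The 7 adipocyte markers summed to 552, 57.5 and 87.2 CPM with niclosamide and 217, 133 and 77.9 CPM with vehicle. The ratio of *Cfd* to *Adipoq*, the adiponectin gene of fat cells, was 3.45, 4.69 and 3.09 with niclosamide and 4.55, 3.26 and 4.32 with vehicle. This ratio to 1 of the 7 markers varied 1.52-fold. The marker sum followed *Cfd* less closely, with 57.5 CPM in niclosamide 2, where *Cfd* had 1.89 CPM. Most of the sum in that library was *Fabp4* (35.4 CPM) and *Lipe* (20.9 CPM). *Adipoq*, *Plin1*, *Lep*, *Cidec* and *Retn* had 0.0618 to 0.402 CPM in niclosamide 2 and 15.4 to 71.6 CPM in niclosamide 1. The part of fat cell content in the *Cfd* values was not tested.

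**Figure D3:**
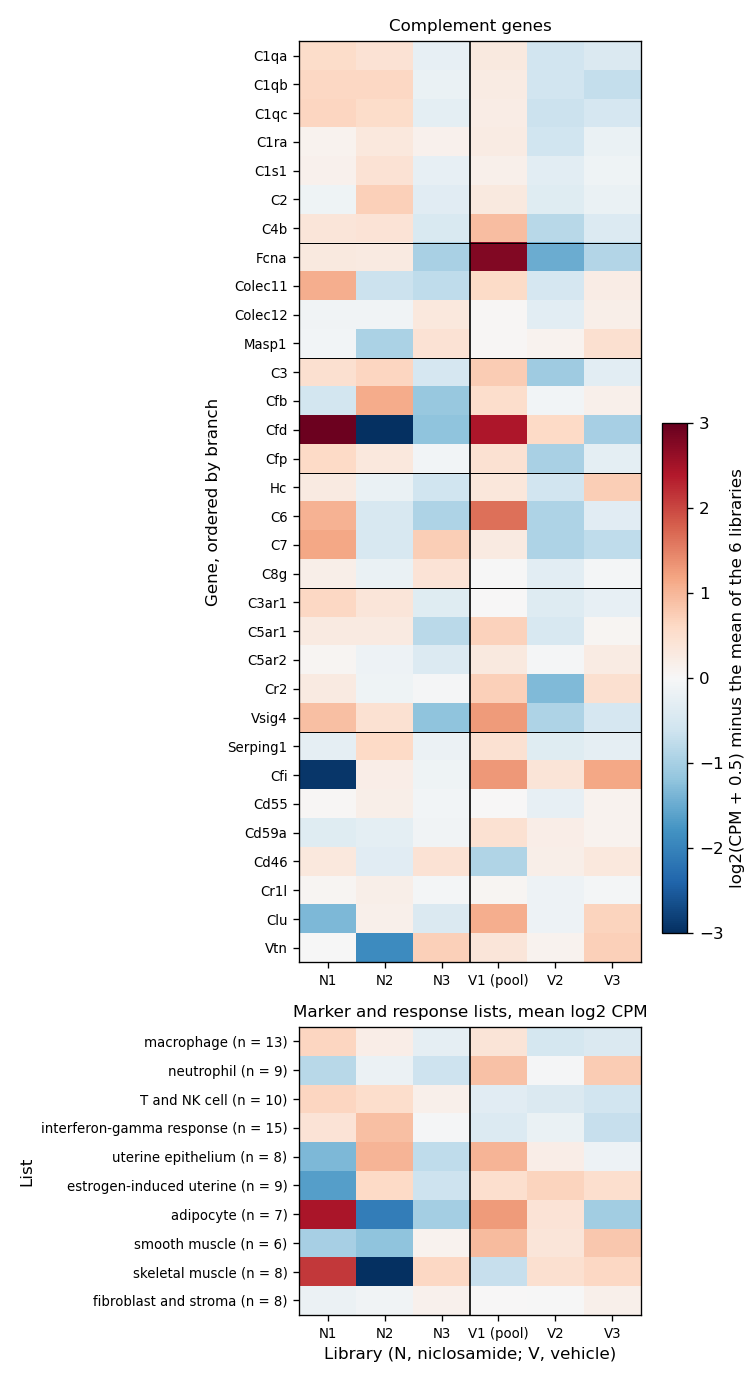
Log2(CPM + 0.5) of each tested complement gene (top) and mean log2 level of marker and response lists (bottom), each minus its mean over the 6 libraries, with niclosamide libraries (N) left of vehicle libraries (V). *Cfd* and the adipocyte list are highest in niclosamide 1 and vehicle 1, the C1q chains and the macrophage list are highest in niclosamide 1 and 2 and vehicle 1, and *Fcna*, *C4b*, *C3*, *C6* and *Vsig4* are highest in the pooled vehicle 1.

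The terminal pathway genes were low in every library. *Hc* had 2.21, 1.45 and 0.995 CPM with niclosamide and 2.33, 1.02 and 3.27 CPM with vehicle (log2 fold change -0.51 ± 0.52; adjusted p = 0.96). *C6* had 7.82, 2.38 and 1.62 CPM with niclosamide and 12.2, 1.62 and 2.7 CPM with vehicle. Its log2 fold change of -0.48 ± 0.92 was 0.86 without vehicle 1. *C7*, whose product joins the pore at the membrane, had 6.36, 1.67 and 4.6 CPM with niclosamide and 3.17, 1.1 and 1.29 CPM with vehicle, which was 40 to 187 reads per library (log2 fold change 1.19 ± 0.63, adjusted p = 0.80). *C8g* stayed between 0.549 and 1.24 CPM. Among terminal genes outside the member list, *C8a*, *C8b* and *C9* had at most 18 counts in any library and were not tested.

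Among the receptors, *C3ar1*, for the C3a receptor of myeloid cells, had the highest level. It had 174, 145 and 86.8 CPM with niclosamide and 112, 85.3 and 93.9 CPM with vehicle, so niclosamide 3 lay within the vehicle range. Its log2 fold change was 0.48 ± 0.27 (adjusted p = 0.82), and 0.72 ± 0.18 without niclosamide 3 (unadjusted p = 0.0078, adjusted p = 0.26, edgeR quasi-likelihood). Leaving out the library within the vehicle range raises the value by construction. Without it, 10.8% of all genes had an unadjusted p under 0.05. *C3ar1* per read of *Csf1r* was 0.352, 0.395 and 0.42 with niclosamide and 0.303, 0.431 and 0.447 with vehicle. The C5a receptor genes had values on the other side of 0. *C5ar1* had 52.9, 53.4 and 25 CPM with niclosamide and 70.9, 31.3 and 45.7 CPM with vehicle (-0.17 ± 0.40), and *C5ar2*, a second C5a receptor, had 7.14, 6.18 and 5.04 CPM with niclosamide and 8.57, 6.73 and 8.2 CPM with vehicle (-0.36 ± 0.23). Neutrophils also carry C5ar1, and 8 of 9 neutrophil markers tested had a log2 fold change below 0, with sums of 264 to 393 CPM with niclosamide and 458 to 907 CPM with vehicle. Their part in the *C5ar1* values was not tested. *Cr2*, the receptor for C3d on B cells, and *Vsig4*, a macrophage receptor for C3b, had at most 6.6 CPM in any library and log2 fold changes of -0.16 ± 0.59 and 0.005 ± 1.04.

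The complement genes whose groups did not overlap, *Cd59a* and *Cfi*, were both regulators. *Cd59a* encodes a membrane protein that blocks assembly of the pore. It had 17.4, 18.4 and 21.1 CPM with niclosamide and 31.2, 26.1 and 24.3 CPM with vehicle, so every niclosamide library lay below every vehicle library. The log2 fold change was -0.52 ± 0.16 with an unadjusted p of 0.014 and an adjusted p of 0.61 (edgeR quasi-likelihood, Benjamini-Hochberg). It stayed between -0.59 and -0.41 when any library was left out, and the unadjusted p was 0.0077 to 0.049 over the 15 alternatives tried, with adjusted p from 0.22 to 1. Its paralog *Cd59b* had 27 to 40 counts per library, with a log2 fold change of -0.08 ± 0.30. *Cd59a* lies on chromosome 2 at 104095801 to 104115413, and reads were counted over its exons.

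*Cfi* encodes factor I, the protease that inactivates C3b and C4b. It had 8.23, 74.4 and 59.7 CPM with niclosamide and 160, 85.5 and 145 CPM with vehicle. The groups did not overlap, and niclosamide 1 was far below all other libraries. The log2 fold change of -1.46 ± 0.74 (adjusted p = 0.79) was -0.96 ± 0.31 without niclosamide 1 (unadjusted p = 0.022, adjusted p = 0.87, edgeR quasi-likelihood). Without that library, 5.61% of all genes had an unadjusted p under 0.05. *Clu* encodes clusterin, which binds the forming pore in the fluid phase. It had 308, 875 and 579 CPM with niclosamide and 1685, 709 and 1256 CPM with vehicle, and only niclosamide 2 lay within the vehicle range. The log2 fold change of -1.05 ± 0.47 (adjusted p = 0.76) was -1.47 ± 0.48 without niclosamide 2 (unadjusted p = 0.021, adjusted p = 0.40, edgeR quasi-likelihood). Leaving out the niclosamide library within the vehicle range lowers the value by construction. Without it, 10.1% of all genes had an unadjusted p under 0.05. For *Cfi* and *Clu*, niclosamide 1 was the lowest library, as it was for the uterine epithelium markers, and the part of epithelial content was not tested. All 6 smooth muscle markers had a log2 fold change below 0 (median -1.31), with groups apart in 5 of the 6, against 12.3% of all genes. Their sums were 2521, 1744 and 4192 CPM with niclosamide and 7358, 5078 and 6737 CPM with vehicle. The smooth muscle markers thus lay on the same side as *Cd59a*, *Cfi* and *Clu*, and their part in those values was not tested.

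*Serping1*, for the C1 inhibitor, had 683, 1246 and 725 CPM with niclosamide and 1125, 638 and 685 CPM with vehicle (log2 fold change 0.12 ± 0.34, 95% interval -0.69 to 0.92). *Cd55*, for decay-accelerating factor, which dissociates the convertases, had 113, 124 and 105 CPM with niclosamide and 111, 93.1 and 118 CPM with vehicle (0.09 ± 0.14, interval -0.25 to 0.43). *Cr1l*, for Crry, the rodent membrane inhibitor of C3 cleavage, varied least of all tested complement genes, with 67.4 to 79 CPM in niclosamide libraries and 63.7 to 73.1 CPM with vehicle (0.10 ± 0.12). *Cd46*, which shares 38 exon bases with *Cr1l*, and *Vtn*, for vitronectin, had at most 6.47 and 9.39 CPM. For *Serping1*, *Cd55* and *Cr1l* the 95% intervals exclude a 2-fold difference in either direction. For most tested complement genes the interval reached beyond 2-fold in at least 1 direction. These included the C1q chains, *C3* (-0.96 to 1.57), *Cfb* (-1.48 to 1.34), *Cfp*, *C3ar1*, *C5ar1*, *Cfi*, *Clu*, *Cfd*, *Fcna* and *C6*.

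Of 26 other complement-related genes that are not members, 25 were counted and 18 tested, 8 with a log2 fold change above 0 and 10 below 0 (median -0.05). None was called by edgeR (lowest adjusted p 0.60), and 2 of the 18 had an unadjusted p under 0.05, against 6.92% of all genes. *Csmd1*, for a membrane protein with complement-inhibiting domains, had 2.58, 3.31 and 4.39 CPM with niclosamide and 5, 13 and 12.2 CPM with vehicle (log2 fold change -1.56 ± 0.42, unadjusted p = 0.0091). *C1rl*, a C1r-like protease gene, had 13.9, 13.3 and 9.3 CPM with niclosamide and 9.41, 7.33 and 7.64 CPM with vehicle (0.58 ± 0.23, unadjusted p = 0.041).

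Much of the variation lay among libraries of 1 group. The pooled vehicle 1 was above the mean of vehicle 2 and 3 in 29 of the 32 tested complement genes, where the same held for 8489 of all 17364 genes, and it exceeded that mean more than 2-fold in 8 of the 32 (25%), against 2.01% of all genes, on the log2(CPM + 0.5) scale. These 8 were *C4b*, *Fcna*, *C3*, *Cfd*, *Cfp*, *C6*, *C7* and *Vsig4*. Most marker lists of cell types were also higher in vehicle 1 than in vehicle 2 and 3, but not all. The mean log2 level of macrophage markers was 6.60 in vehicle 1, against 5.68 and 5.79 in vehicle 2 and 3. It was 5.09 against 2.74 and 3.47 for mesothelium, and 4.43 against 2.29 and 3.69 for B cells. For uterine epithelium it was 7.34 against 6.52 and 6.17, and for adipocytes 4.40 against 3.54 and 2.09. Neutrophil, dendritic cell, T and NK cell and smooth muscle lists were higher in vehicle 1 as well. Skeletal muscle markers went the other way, with 9.003 in vehicle 1 against 10.18 and 10.32. So did endothelium markers, with 5.985 against 6.089 and 6.463. Fibroblast and stroma markers in vehicle 1 lay between those in vehicle 2 and 3. The part of these lists was not tested. Vehicle 2 was the lowest of the 6 libraries in 17 of the 32, against 13.6% of all genes. The summed level of all complement genes was 9355, 12030 and 6295 CPM with niclosamide and 12265, 5706 and 7578 CPM with vehicle.

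Without vehicle 1, which leaves 2 vehicle libraries, the log2 fold change was above 0 in 24 of the 32 genes. Their median was 0.38, against 0.02 for all genes. Because vehicle 1 was high in most complement genes, leaving it out raises their values by construction and gives no separate support. An unadjusted p under 0.05 was then found in 7 of the 32 (5.38% of all genes), namely *C1qa*, *C1qb*, *C1qc*, *C1ra*, *C7* and *Cfp* higher and *Cd59a* lower. The groups were then apart in 8 of the 32, against 20.3% of all genes. The C1q values became 0.80 ± 0.29 for *C1qa*, 1.04 ± 0.32 for *C1qb* and 0.93 ± 0.33 for *C1qc*, each with an adjusted p of 0.92 (edgeR quasi-likelihood, Benjamini-Hochberg), and no complement gene passed. Leaving out vehicle 2, often the lowest library, moved the values the other way. The log2 fold change was then above 0 in 12 of the 32 genes, with a median of -0.099 (0.03 for all genes). Groups were apart in 6 of the 32, with 0 higher, against 19.2% of all genes. Whether vehicle 1 differed through pooling or through its animals cannot be told apart.

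The 15 interferon-gamma response genes, a program known to induce several complement genes, all had a log2 fold change above 0 (median 0.82), against 53.7% of all genes. Of the 15, 10 had an unadjusted p under 0.05 (6.92% of all genes) and 0 were called. Groups were apart in 7 of the 15, against 12.3% of all genes. The 15 genes summed to 5650, 8494 and 4375 CPM with niclosamide and 2988, 3768 and 2512 CPM with vehicle, and these sums did not overlap. Groups overlapped for *C2*, *C3*, *C4b*, *Cfb* and *Serping1*, as for all tested complement genes but *Cd59a* and *Cfi*. Skeletal muscle markers summed to 32580, 775 and 11391 CPM with niclosamide and 4625, 10874 and 11452 CPM with vehicle. These reads were present although the labels state that lesions were freed from recipient tissue, and their source was not tested. The part of these lists in the complement values was not tested.

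**Figure D4:**
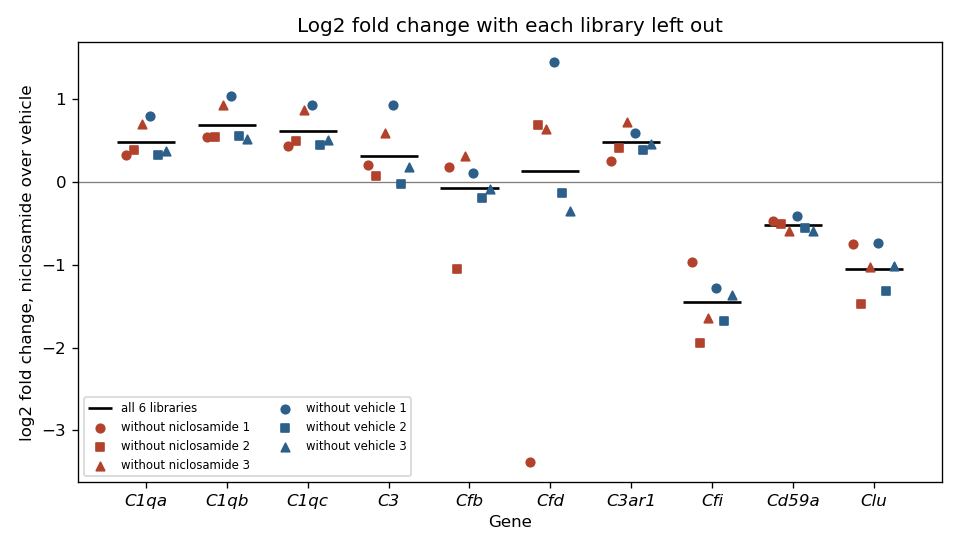
Log2 fold change, niclosamide over vehicle, of 10 complement genes with all 6 libraries (bars) and with each library left out (points). *Cd59a* stays between -0.59 and -0.41, the C1q chains stay above 0, and *Cfd* ranges from -3.38 to 1.44.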

How the data were processed

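RNA from 6 lesion samples was sequenced with a TruSeq Stranded kit, per the labels. The authors deposited raw read counts, 1 value for each gene symbol. Per the file headers, featureCounts 1.4.6-p4 counted STAR alignments over exons of the GRCm38.p3 annotation with the reverse-stranded setting and no option for multi-mapping reads. Per the submitters' processing notes, Trimmomatic 0.33 and STAR 2.4.2a were used. Exons of *C2*, *C4b*, *Cfb*, *Cd55* and *Masp2* are also annotated on alternate sequences, and reads matching several copies may be missing, so their levels are uncertain. RPKM here uses exon bases on the main chromosome only.

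Niclosamide was compared with vehicle in edgeR 4.0.16 (R 4.3.3): filterByExpr (minimum count 10, minimum total 15), TMM scaling, and a quasi-likelihood model with robust dispersions and group as its only term. Benjamini-Hochberg adjustment covered all 17364 genes, with a threshold of 0.05. SE is the size of the log2 fold change divided by the root of its F statistic. Alternatives were RLE and upper-quartile scaling, other filters, DESeq2 1.42.0 and limma-voom (limma 3.58.1) on the filtered genes, non-robust dispersions, a replicate block and leaving out each library. Labels do not state that same-numbered libraries belong together, and the p-values measure the spread between these libraries only.

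The members and gene lists were chosen with earlier results of these data known. Values in every library are given for 20 genes fixed by name, for the gene with the highest RPKM per branch, and for any with an unadjusted p under 0.05 or groups apart.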

Additional observations from a re-analysis of the deposited data

How the results depend on the processing

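No complement gene passed an adjusted p of 0.05 under any alternative, nor 0.10 in the edgeR test. Over all genes the count of calls, 0 with the settings reported, was 195 by DESeq2 and 1 without a filter on low counts (*Slc24a3*, named because it was the single call), and it stayed at 0 with any library left out. The number of complement genes with an unadjusted p under 0.05, 1 as reported, was 3 by DESeq2 (8.19% of all genes), 4 by limma-voom with quality weights (7.49%), 3 with the replicate block (6.57%), and 1 to 7 with a library left out (3.86% to 10.8%). The number whose groups did not overlap, 2 as reported, was 2 to 8 with a library left out, where 18.1% to 27.3% of all genes did not overlap. Of 330 log2 fold changes of the 22 named genes under 15 alternatives, 306 kept their direction. The direction of *Cfd* turned by limma-voom (-1.53), with quality weights (-0.997) and with the replicate block (-1.14), and that of *C6* with quality weights (0.00094). With a library left out, the ranges that crossed 0 were -0.19 to 0.44 for *C2*, -0.26 to 0.77 for *C4b*, -0.082 to 0.17 for *Colec12*, -0.026 to 0.93 for *C3*, -1.05 to 0.31 for *Cfb*, -3.38 to 1.44 for *Cfd*, -1.46 to 0.86 for *C6*, -0.41 to 0.18 for *C5ar1*, -0.23 to 0.42 for *Serping1* and -0.0053 to 0.17 for *Cd55*. The cause of these changes was not tested. Deviations of same-numbered libraries had correlations of -0.08, -0.09 and 0.27. Other pairs ranged from -0.36 to 0.36, so the block is no test of pairing. Depth limits *Hc*, *C8g*, *Vsig4* and the 4 untested genes, which had few reads.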
